A study of Mus musculus with 6 samples.

Results

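The HOX-cluster microRNAs (miRNAs) are the short silencing RNAs encoded between the homeobox genes: miR-10a and miR-10b, miR-196a and miR-196b, and miR-615. They were read here as 5 mature miRNAs, mmu-miR-10a-5p, mmu-miR-10b-5p, mmu-miR-196a-5p, mmu-miR-196b-5p and mmu-miR-615-3p (mmu, for mouse, is dropped below), taken by name and not by their values. All 5 had a row in each library, out of 1964 mature miRNAs listed. The libraries held small RNA of exosomes, the vesicles cells shed into their medium, from 2 cell types of mouse dorsal skin, with 3 libraries each. Epidermal stem cell (ESC) exosomes came from C57BL/6 mice of 3 weeks in the resting (telogen) phase of the hair cycle, from the cells that stuck fast to collagen IV and grew in serum-free keratinocyte medium. Dermal fibroblast (Fb) exosomes came, per the growth protocol, from db/db mice of 14 weeks, which lack a working leptin receptor and become obese and diabetic, although the strain label of the Fb libraries also reads C57BL/6. The Fb were grown with fetal bovine serum and moved to medium without serum before collection. Cell type, strain, age and medium thus changed together and cannot be told apart, and no label says whether a library came from 1 animal or a pool.

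HOX genes encode transcription factors that give cells their position along the body axis, and mammals carry them in 4 clusters, HoxA to HoxD. Each miRNA gene lies among the HOX genes of its cluster and is transcribed from the same strand as its neighbours. miR-196 is known for repressing HOX messenger RNAs such as Hoxb8, and miR-10 is known to target HOX genes as well as other messages. Skin fibroblasts are known to keep a HOX pattern that reflects their site of origin.

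The mature sequences, from RefSeq (GRCm38.p6, 5 of 5 matched), are shown because pairs of members from different clusters differ by a single base, so that the reads of a pair can be told apart only there. Capitals mark the seed, bases 2 to 8 from the 5′ end, which pairs with target messages.
miR-10a-5p: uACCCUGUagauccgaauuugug
miR-10b-5p: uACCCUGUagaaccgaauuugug
miR-196a-5p: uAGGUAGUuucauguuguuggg
miR-196b-5p: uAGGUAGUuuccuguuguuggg
miR-615-3p: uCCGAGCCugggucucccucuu
miR-10a-5p and miR-10b-5p shared the seed ACCCUGU and differed at 1 of 23 bases (U12A, miR-10a base first, counted from the 5′ end). miR-196a-5p and miR-196b-5p shared the seed AGGUAGU and differed at 1 of 22 bases (A12C). No other mature miRNA of the RefSeq table had either seed, and 0 others had that of miR-615-3p.

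In GENCODE M21, which has the GRCm38 build of the files, the gene of miR-10a lies in HoxB on chromosome 11 (96317165 to 96317274, plus strand), outside any HOX gene of its strand and 992 bases before Hoxb4. The gene of miR-10b lies in HoxD on chromosome 2 (74726070 to 74726137, plus strand), within introns of the annotated Hoxd3 and Hoxd4. miR-196a-5p has a gene in each of 2 clusters with the same mature sequence. Mir196a-1 lies in HoxB on chromosome 11 (96265164 to 96265265, plus strand), 6191 bases before Hoxb9, and Mir196a-2 in HoxC on chromosome 15 (102973350 to 102973434, plus strand), between Hoxc10 and Hoxc9 and within a long annotated intron of Hoxc5. The gene of miR-196b lies in HoxA on chromosome 6 (52230081 to 52230165, minus strand), where it overlaps an exon of an annotated Hoxa9 transcript. The gene of miR-615 lies in HoxC on chromosome 15 (103014910 to 103015001, plus strand), in an intron of Hoxc5.

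The ESC libraries held 9894485 to 11149046 assigned reads and the Fb libraries 6914504 to 8691350, of which mature miRNAs had 13.3% to 14.7% and 0.613% to 2.05%. A floor of 3 reads stood at 1.97 to 2.15 CPM (counts per 1000000 mature miRNA reads) in ESC and at 16.9 to 61.2 CPM in Fb libraries, with Fb replicate 1 the shallowest at 49019 mature miRNA reads. Against miRNA markers of cell type, all 7 of the epithelial list were higher in every ESC library, with a summed level of 59872 to 74600 CPM against 7457 to 14174 CPM in the Fb libraries. Of the 5 mesenchymal markers 4 were higher in every Fb library, with sums of 128 to 209 CPM and 106305 to 180838 CPM. The other, miR-199a-3p, overlapped, since Fb replicate 2 lay below ESC replicates 2 and 3. A row of close name, miR-199b-3p, was listed apart and is not in the list. The overlap of miR-199a-3p and the range of the Fb sums may therefore depend on how reads were divided, which was not tested. Epithelial markers were thus not at 0 in Fb exosomes, and their part in the results was not tested. Of the other markers, red cell miRNAs summed to 0.761 to 303 CPM (ESC) and 391 to 11378 CPM (Fb), muscle miRNAs to 123 to 161 CPM and 466 to 1714 CPM, endothelial miRNAs to 77.1 to 120 CPM and 109 to 347 CPM, and leukocyte miRNAs to 0.239 to 2.70 CPM and 30.9 to 102 CPM. In Fb libraries nearly all of the red cell sum was miR-486a-5p (4260, 385 and 11311 CPM), with miR-451a at 40.8, 5.62 and 58.9 CPM. A row of close name, miR-486b-5p, was likewise listed apart, so the level of miR-486a-5p may depend on how reads were divided. The liver and serum marker miR-122-5p was at 6.09 to 7.90 CPM in ESC and at 0 to 5.83 CPM in Fb libraries, below the floor of the latter. Within these lists miR-142a-3p was at 0 in both groups, as was the pigment-cell miR-211-5p, miR-223-3p was at 0 in ESC and miR-150-5p at 0 in Fb exosomes.

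Together the 5 members held 12.7% ± 1.69 (SD, n = 3) of mature miRNA reads in ESC exosomes and 1.82% ± 0.699 (SD, n = 3) in Fb exosomes. The 2 miR-10 members made up 96.5% to 97.7% of the members' reads in ESC and 78.6% to 94.3% in Fb exosomes. Mature miRNAs of this kind have nearly the same length, but how evenly reads of different sequences were recovered was not tested, so orders between miRNAs are orders of reads. By reads, the order in ESC exosomes was miR-10b-5p, miR-10a-5p, miR-196a-5p, miR-196b-5p and miR-615-3p in every library. In Fb exosomes miR-10a-5p stood above miR-10b-5p in every library, and the last 2 places were not separate: miR-615-3p was above miR-196b-5p in Fb replicate 1 and below it in the others.

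**Figure D1:**
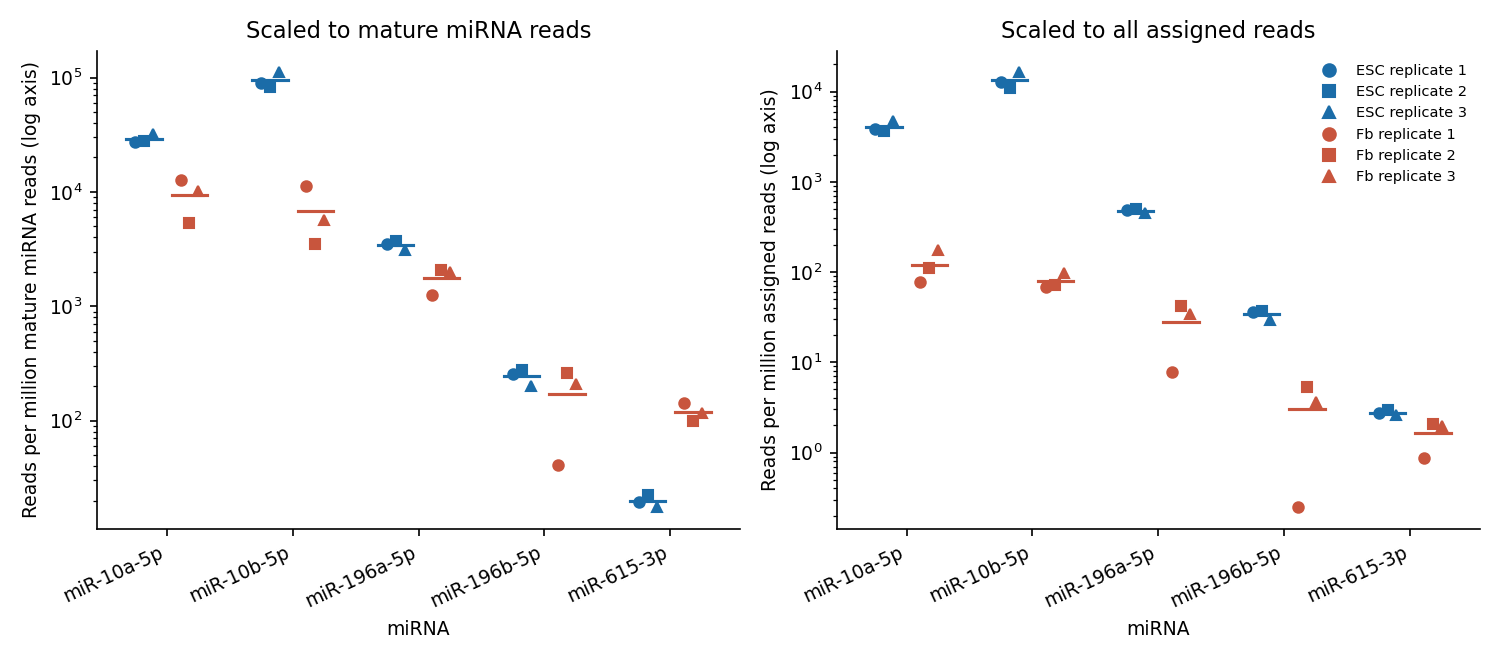
Each point is 1 library, the short lines are group means (n = 3), and both vertical axes are logarithmic, with CPM of mature miRNA reads on the left and RPM of assigned reads on the right (defined in the text). On the left miR-615-3p is the member with all Fb points (100 to 143 CPM) above all ESC points (17.6 to 22.2 CPM), while on the right all ESC points lie above all Fb points for each of the 5 members.

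In the fit of mature miRNA reads, 3 members rose in ESC exosomes (miR-10b-5p, miR-10a-5p and miR-196a-5p), miR-615-3p rose in Fb exosomes and miR-196b-5p did not pass. The test was the quasi-likelihood test of edgeR, with p adjusted by Benjamini and Hochberg's method over the 325 mature miRNAs tested. This fit rescaled the miRNA totals by TMM factors, which CPM values do not use, so its fold changes differ from ratios of CPM. All 5 passed the count filter. Across all 325, 49.5% passed (21.8% higher in ESC and 27.7% higher in Fb), so 4 of 5 members stand beside a background in which about every other miRNA passed. The median log2 fold change, ESC over Fb, was 1.32 over the members and -0.11 over all miRNAs tested. The groups did not overlap in 4 of 5 members, against 60.9% of all 325 (24.9% with ESC above and 36.0% with Fb above). In bulk libraries, fewer vesicles that carry a miRNA and less of it per vesicle cannot be told apart.

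**Figure D2:**
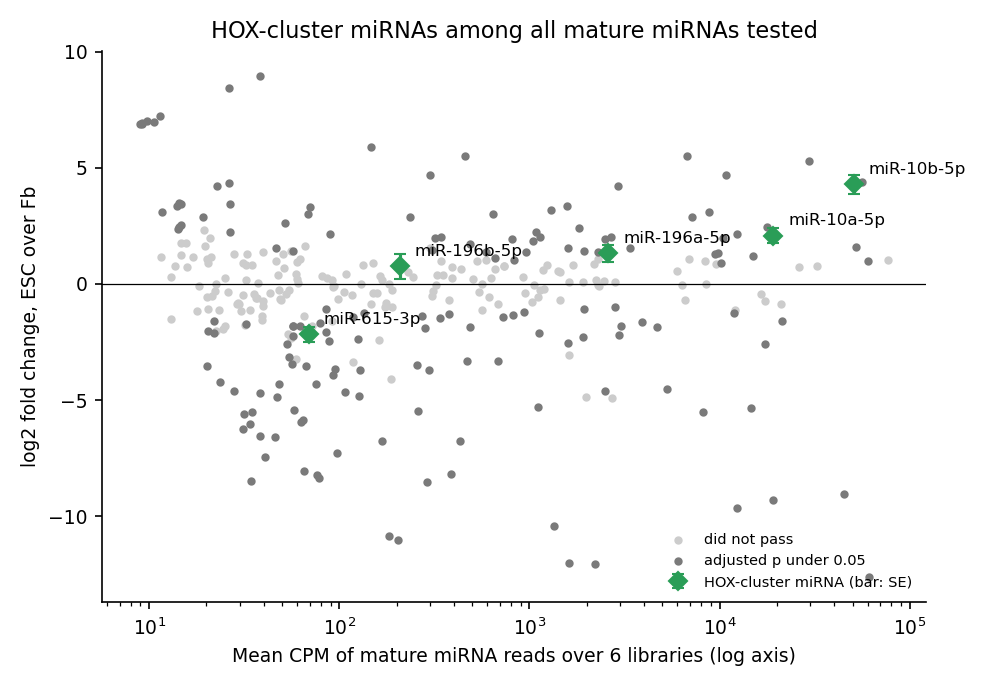
Each point is 1 of 325 mature miRNAs, with its mean CPM over the 6 libraries on a logarithmic horizontal axis and its log2 fold change (ESC over Fb) on the vertical axis. Green diamonds are the HOX-cluster miRNAs with their standard errors: miR-10b-5p stands highest at 4.28, and miR-615-3p is the one below 0, at -2.18.

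miR-10b-5p, the HoxD member, was among the 3 most abundant miRNAs of every ESC library, and first in ESC replicate 3. It was at 89614, 82891 and 110806 CPM in the ESC libraries and at 11200, 3502 and 5645 CPM in the Fb libraries. The lowest ESC library lay above the highest Fb library, Fb replicate 1, and in Fb exosomes the miRNA ranked from 21 to 41 in abundance. edgeR put the log2 fold change at 4.28 ± 0.42 (SE), with an adjusted p = 2.16e-04. These values rest on 122581 to 168713 reads per ESC library and on 549 to 670 reads per Fb library.

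miR-10a-5p, the HoxB member of the same seed, was the 9th miRNA by abundance in each ESC library. It was at 27098, 27662 and 32292 CPM in ESC and at 12607, 5352 and 10161 CPM in Fb libraries. The groups were again separate, by a smaller step, with edgeR giving 2.08 ± 0.33 (log2 ± SE, adjusted p = 0.00187). Fb replicate 1 was the highest Fb library for both miR-10 members, and without it miR-10b-5p gave 4.77 and miR-10a-5p 2.30 on the log2 scale.

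The balance within the pair differed between the groups. For each read of miR-10a-5p, the ESC libraries held 3.31, 3.00 and 3.43 reads of miR-10b-5p and the Fb libraries 0.888, 0.654 and 0.556. The HoxD member thus had more reads in every ESC library and the HoxB member in every Fb library. This ratio depends on no scaling, although it may depend on how the authors' counting divided reads that match both, and was 4.72 times as high in ESC exosomes (p = 0.1 by a two-sided exact permutation test, which is the lowest value groups of 3 can reach, and 0.15 when adjusted over the 3 ratios compared).

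miR-196a-5p, from HoxB and HoxC, was at 3486, 3753 and 3077 CPM in ESC and at 1264, 2056 and 1979 CPM in Fb libraries. Every ESC library was above every Fb library, and edgeR gave 1.32 ± 0.36 (log2 ± SE, adjusted p = 0.0198). The call was lost without Fb replicate 3 (edgeR adjusted p = 0.118), with a filter of at least 50 reads on average (adjusted p = 0.0663) and when the 3 most abundant miRNAs were left out of the library size (adjusted p = 0.110), with the direction kept in each.

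miR-196b-5p, the HoxA member of that seed, was at 257, 280 and 202 CPM in ESC and at 40.8, 258 and 211 CPM in Fb libraries. Fb replicates 2 and 3 lay within the ESC range, and Fb replicate 1 rested on 2 reads, with an exact 95% counting interval of 4.94 to 147 CPM. The log2 fold change of 0.75 (SE 0.55) did not pass, at an edgeR adjusted p = 0.295. Reads of miR-196a-5p per read of miR-196b-5p were 13.6, 13.4 and 15.2 in ESC and 31.0, 7.96 and 9.40 in Fb libraries, which overlap (exact permutation p = 1.0). The overlap rested on Fb replicate 1, with its 2 reads of miR-196b-5p, while Fb replicates 2 and 3 lay below every ESC library. Without Fb replicate 1 the log2 difference was 0.70 (exact permutation p = 0.2, the lowest value the test can reach with that library left out). Whether the pair changed differently was therefore not settled at this depth.

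miR-615-3p, the HoxC intron member, was the scarcest in ESC exosomes at 19.4, 22.2 and 17.6 CPM, against 143, 100 and 115 CPM in Fb libraries. The groups did not overlap, with -2.18 ± 0.34 from edgeR (log2 ± SE, adjusted p = 0.00182), and the call held when any one library was left out. It rested on 27, 33 and 27 reads in the ESC libraries and on 7, 18 and 14 reads in the Fb libraries, so a single Fb value is loose: the exact 95% counting interval of Fb replicate 1 ran from 57.4 to 294 CPM. For each read of miR-615-3p there were 180, 169 and 175 reads of miR-196a-5p in ESC libraries and 8.85, 20.5 and 17.1 in Fb libraries (exact permutation p = 0.1, adjusted p = 0.15 over the 3 ratios). All ESC ratios lay far above that of the highest Fb library. They rest on 27 to 33 reads of miR-615-3p, so their closeness to each other is no measure of precision.

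Relative to all assigned reads, in which miRNAs were a far larger part of ESC libraries, all 5 members were higher in every ESC library. The same held for 74.8% of the 325 miRNAs (85.2% did not overlap in either direction, 10.5% with Fb above), so that this direction is shared with most miRNAs. miR-10b-5p took 12615, 10995 and 16266 RPM (reads per 1000000 assigned reads) in ESC and 68.7, 71.7 and 96.9 RPM in Fb libraries, a ratio of means of 168. On this scale the Fb libraries lay close together, and Fb replicate 1 was the lowest of them. miR-10a-5p took 4075 ± 581 RPM in ESC and 120 ± 49.5 RPM in Fb exosomes (SD, n = 3), a ratio of 33.8. miR-196a-5p was at 491, 498 and 452 RPM in ESC and at 7.75, 42.1 and 34.0 RPM in Fb libraries, again lowest in Fb replicate 1, and miR-196b-5p was at 34.3 ± 4.07 and 3.05 ± 2.57 RPM.

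For miR-615-3p the direction flipped between the scales. It was at 2.73, 2.94 and 2.59 RPM in ESC and at 0.876, 2.05 and 1.98 RPM in Fb libraries, higher in each ESC library by a ratio of means of 1.68. The 5 members each had an exact permutation p = 0.1 on the RPM scale, also when adjusted over the 5. With tRNA rows taken out of the assigned reads, miR-615-3p fell from a log2 difference of 0.85 to 0.35 (exact permutation p = 0.2), the one member whose p moved. In edgeR's fit of all 2999 RNAs tested, with TMM factors and adjustment over all of them, miR-10b-5p alone among the members passed (5.48 ± 1.53, log2 ± SE, adjusted p = 0.0441), where 11.8% of all RNAs passed in either direction, and 3.63% of all RNAs and 17.3% of the 307 miRNAs in that fit passed on the ESC side. miR-615-3p stood at -1.27 there (SE 0.87, edgeR adjusted p = 0.463) and at 0.73 (SE 0.91, adjusted p = 0.736) when libraries were scaled by their totals alone, an alternative chosen after the data were seen. In that same alternative miR-10b-5p (7.39, edgeR adjusted p = 5.31e-05), miR-10a-5p (5.08, adjusted p = 5.98e-04) and miR-196a-5p (4.10, adjusted p = 0.00707) passed, and miR-196b-5p did not (3.48, adjusted p = 0.0538). The median over miRNAs moved from -0.11 in the miRNA fit to 1.15 and 3.15 in these 2 fits. miR-615-3p was thus higher in Fb exosomes as a share of miRNA reads and not as a share of all reads, where the difference was small.

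**Figure D3:**
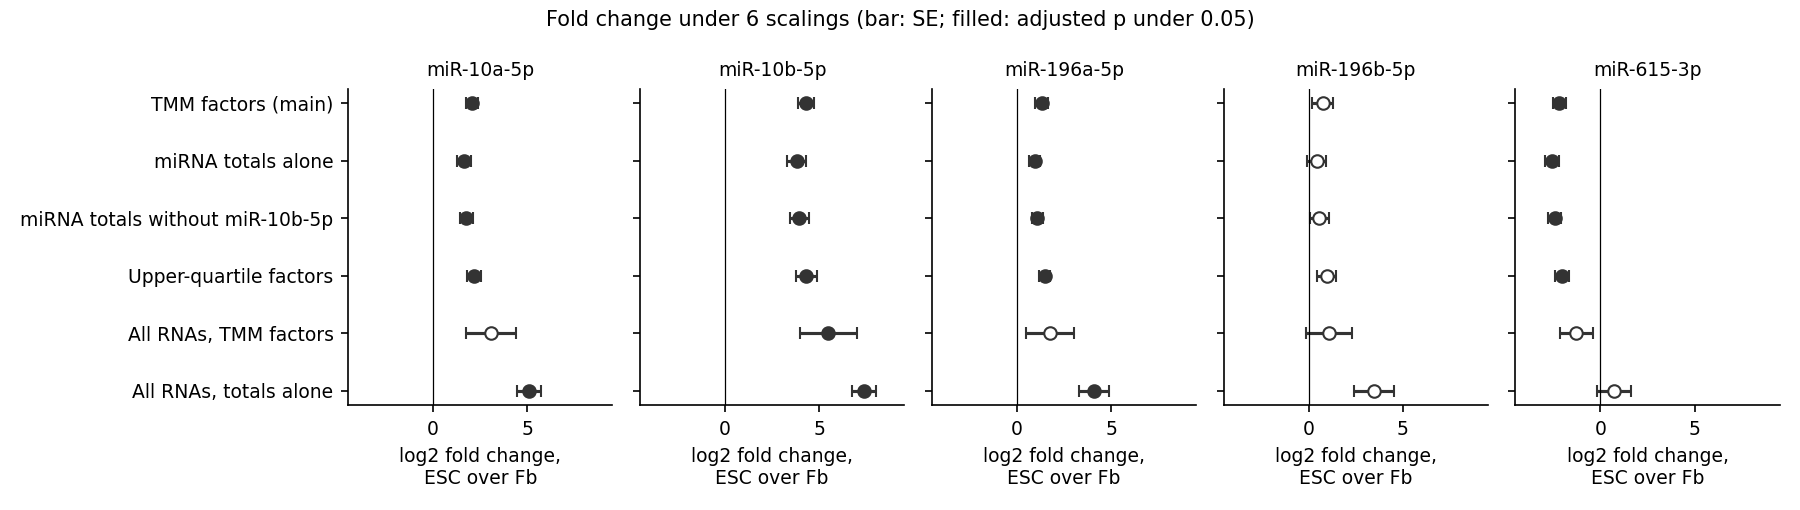
Each panel is 1 member and each line 1 scaling, with the log2 fold change (ESC over Fb) on the horizontal axis, bars for the standard error and filled points for an adjusted p under 0.05. miR-10b-5p is filled and right of 0 in all 6 fits, and miR-615-3p moves from -2.18 in the miRNA fit with TMM factors to 0.73 when all RNAs are scaled by their totals.

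The other arm of each hairpin gives a further reading of the same genes. It is not an independent one, and its level need not follow that of the first arm. Of the 6 arms, 4 passed the count filter of the miRNA fit. The HoxD arm miR-10b-3p was at 111, 134 and 114 CPM in ESC and at 40.8, 11.2 and 8.42 CPM in Fb libraries, which had 2, 2 and 1 reads. The exact 95% counting intervals of these Fb values were 4.94 to 147, 1.36 to 40.6 and 0.213 to 46.9 CPM, the first of which reaches the ESC range. Every Fb count lay below the floor of 3 reads, and the row passed the count filter on the strength of its ESC libraries. edgeR put miR-10b-3p higher in ESC exosomes, as it did miR-10b-5p, at 3.31 ± 0.52 (log2 ± SE, adjusted p = 0.00182). The size of that step rests on these few Fb reads.

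The HoxB arm miR-10a-3p did not pass. It was at 238, 225 and 239 CPM in ESC and at 286, 191 and 194 CPM in Fb libraries, on 14 to 34 reads per Fb library, and the groups overlapped (log2 fold change 0.51, SE 0.27, edgeR adjusted p = 0.152). It passed without Fb replicate 1 (0.66, adjusted p = 0.0178) and with DESeq2 (0.64, adjusted p = 0.0335). It was at 0.10 with miRNA totals alone and at -0.01 with the filter of 50 reads on average. Reads of miR-10a-5p per read of miR-10a-3p were 114, 123 and 135 in ESC and 44.1, 28.0 and 52.5 in Fb libraries, 3.08 times as high in ESC exosomes (exact permutation p = 0.1, adjusted p = 0.2 over 2 arm ratios chosen after the data were seen). The same ratio of miR-10b was 811, 617 and 975.3 in ESC and 274, 312 and 670 in Fb libraries, which overlap (exact permutation p = 0.2).

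The 2 genes of miR-196a make the same 5p arm but different 3p arms, shown in full because only these reads tell HoxB from HoxC.
miR-196a-1-3p: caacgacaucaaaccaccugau
miR-196a-2-3p: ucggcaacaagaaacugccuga
The HoxB arm miR-196a-1-3p had 127, 114 and 102 reads in the ESC libraries and 1, 5 and 7 in the Fb libraries. The HoxC arm miR-196a-2-3p had 10, 23 and 4 reads in the ESC libraries and 0, 9 and 7 in the Fb libraries, the 0 allowing up to 75.3 CPM by its exact 95% counting interval. HoxC thus gave the minority of these reads in ESC exosomes and about as many as HoxB in the 2 deeper Fb libraries.

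As a share of both 3p arms, the HoxC arm held 7.30%, 16.8% and 3.77% in ESC libraries, and 64.3% in Fb replicate 2 and 7 of 14 reads in Fb replicate 3, with exact 95% intervals (Clopper-Pearson) of 35.1% to 87.2% and 23.0% to 77.0%. Fb replicate 1 had 1 such read, from HoxB, and says nothing about the share. Over all 3 Fb libraries the share was 38.1% ± 33.8 against 9.29% ± 6.73 in ESC (SD, n = 3, exact permutation p = 0.4). Without Fb replicate 1 it was 57.1% ± 10.1 (SD, n = 2, exact permutation p = 0.2), a comparison chosen after the data were seen. That p is the lowest the test can reach with that library left out. In the miRNA fit miR-196a-1-3p rose in ESC exosomes (1.41 ± 0.47, log2 ± SE, edgeR adjusted p = 0.0406), a call lost without any one library other than Fb replicate 1 (adjusted p of 0.0514 to 0.0960). The call was also lost with miRNA totals alone (edgeR adjusted p = 0.0987), with totals less miR-10b-5p (0.0684) or less the 3 most abundant miRNAs (0.169), with the filter of 50 reads (0.0844), in the fit of all RNAs (0.180) and with the replicate number as a block (0.141). miR-196a-2-3p stood at -2.01 (SE 0.88, edgeR adjusted p = 0.0932) and passed without Fb replicate 1 (adjusted p = 0.0369) or with the 3 most abundant miRNAs left out of the library size (adjusted p = 0.0497). It was at -1.58 without Fb replicate 2 (edgeR adjusted p = 0.302) and at -0.88 with limma-trend (SE 1.25, adjusted p = 0.594).

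**Figure D4:**
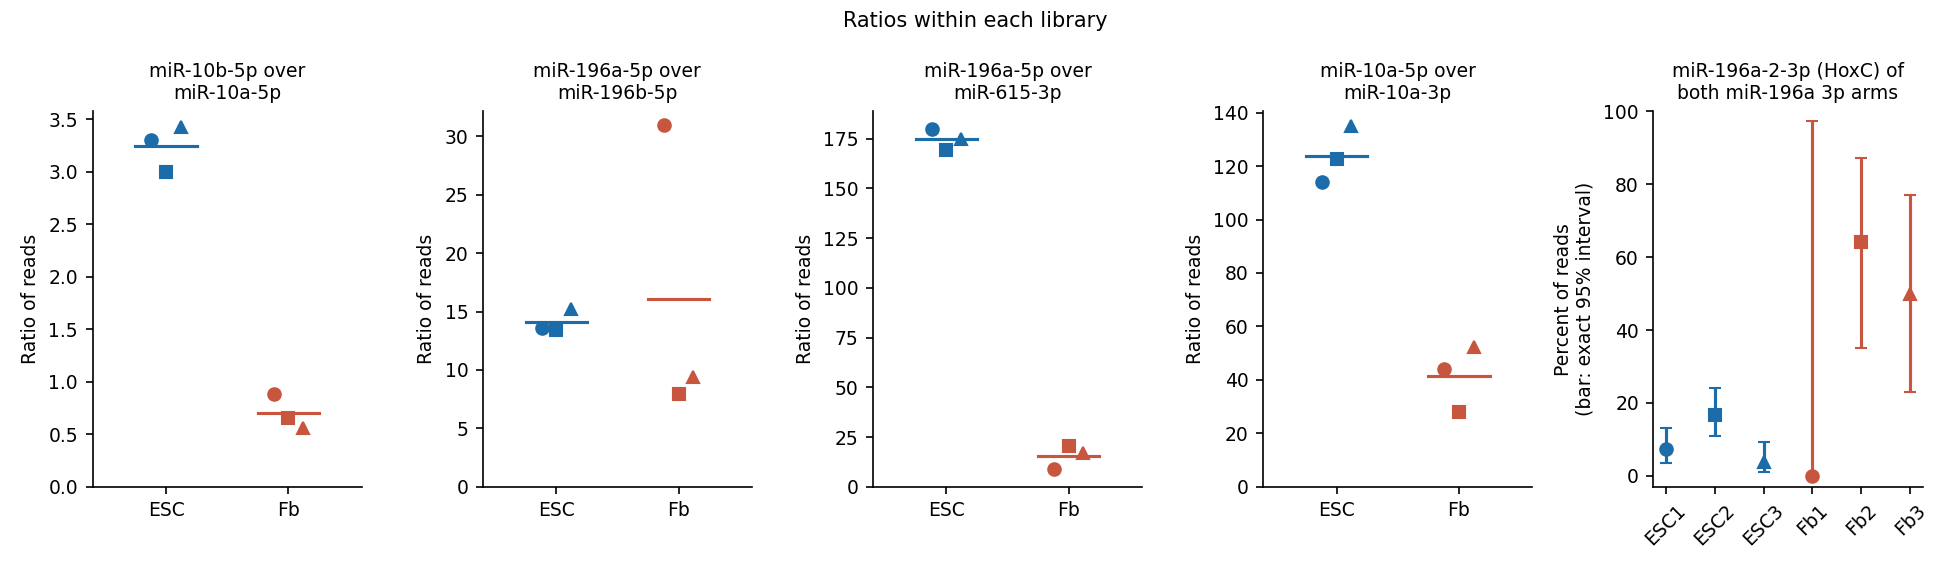
The first 4 panels give the ratio of reads of 2 miRNAs in each library (points, with group means as lines), and the last gives the percent of miR-196a 3p-arm reads from the HoxC gene with exact 95% intervals. The ESC and Fb points are apart for miR-10b-5p over miR-10a-5p, miR-196a-5p over miR-615-3p and miR-10a-5p over miR-10a-3p, and the interval of Fb replicate 1 in the last panel covers almost the whole axis.

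The remaining arms were scarce. miR-196b-3p had 18 reads in ESC exosomes in all and 2 in Fb exosomes, and miR-615-5p had 0 reads in all 6. By the exact 95% counting interval, 0 reads allow up to 2.65 CPM in the shallowest ESC and 75.3 CPM in the shallowest Fb library. The 6 hairpin rows held 2 reads or fewer each in any library, after rounding.

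By cluster of origin, the readings in the miRNA fit were as follows, with no test of a difference between clusters and with 49.5% of all miRNAs passing in that fit. Both HoxD readings, miR-10b-5p and miR-10b-3p, which are arms of the same hairpin, were higher in ESC exosomes. For miR-10b-3p every Fb count was below the floor of 3 reads. Of the HoxB readings, miR-10a-5p and miR-196a-1-3p passed on the ESC side and miR-10a-3p, whose CPM overlapped, did not pass. Of the HoxC readings, miR-615-3p passed on the Fb side and miR-196a-2-3p, whose CPM overlapped, did not pass. miR-196a-5p, which HoxB and HoxC share, passed on the ESC side, and miR-196b-5p of HoxA did not pass. As shares of all assigned reads none of these readings was higher in every Fb library, on a scale where only 10.5% of the 325 miRNAs were. miR-196a-2-3p overlapped on that scale, at 1.15 ± 0.848 RPM in ESC and 0.683 ± 0.591 RPM in Fb exosomes (SD, n = 3).

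Long non-coding RNAs of the HOX clusters were the other transcripts of these loci that the tables could hold, since 0 of the 39 HOX protein genes had a row. Of 36 non-coding rows within 10 kb of a cluster, 11 had at least 10 reads over all libraries, and the groups overlapped in RPM for all 11. How often the groups overlapped among other rows with so few reads was not counted, so this cannot be read as a trait of the HOX loci. The antisense transcript Hoxb3os had 13.1, 9.0 and 13.8 reads in ESC and 38.6, 4.3 and 8.0 in Fb libraries, with Fb replicate 1 the highest. In the fit of all RNAs 5 of the rows were tested and 1, Hoxb3os, passed on the Fb side (-1.65 ± 0.44, log2 ± SE, edgeR adjusted p = 0.0353), where 8.2% of all RNAs passed. Its gene is antisense to Hoxb3, and since strand use is not given, reads of the 2 cannot be told apart. The call was absent when libraries were scaled by totals only, when no rows were filtered out, and when any one library was removed. Hoxd3os1 (-1.07, SE 0.47, edgeR adjusted p = 0.212), Hoxaas3 (-0.63), Hoxb5os (-0.61) and Haglr (0.86) did not pass. Hotair, the HoxC transcript known for acting on HoxD in trans, had 3.3, 19.4 and 2.3 reads in ESC and 5.5, 0 and 0.3 in Fb libraries, too few to be tested, as were Hotairm1, Hottip, Gm53, Gm29430 and Gm11536. The median log2 fold change of the 5 tested was -0.63, against 0.07 over the 2524 tested rows that were neither miRNA nor tRNA. With library totals alone the medians were 0.05 and 0.77, and without Fb replicate 1 they were -0.60 and 0.24. Fb replicate 1 was the highest Fb library in RPM for all 5, as for Hoxaas3 with 10.8 RPM against 1.22 and 1.64 RPM in the other Fb libraries. For Hoxaas3, Hoxd3os1 and Haglr, Fb replicates 2 and 3 lay below every ESC library in RPM.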

How the data were processed

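Small RNA was sequenced from 6 exosome libraries, grouped by title. The submitters' processing notes name FastQC, cutadapt and the GRCm38 build. Which aligner, counter and annotation were used, whether strand counted, and how reads matching several RNAs were divided is not given in the sources used here. As deposited by the authors, the values are estimated counts per non-coding RNA (16310 rows, 1964 mature miRNAs), and 82.6% to 92.2% of nonzero values in a library were fractional, so the split between members that differ by 1 base depends on steps not given. Counts were rounded and tested with edgeR 4.0.16 in R 4.3.3 (TMM scaling, filterByExpr set to at least 10 reads and a total of 15, group as the only term, adjusted p of 0.05), on mature miRNAs and on all RNAs. The fits were tested on simulated data. SEs are the log2 fold change over the root of the F statistic. RPM and within-library ratios were compared with exact permutation tests (scipy 1.17.1). For patterns, CPM was put on the log2 scale after adding a prior of 2 reads. Members, lists and the naming rule were chosen with earlier results of these data known. That rule took the members, their other arms and hairpins, same-seed miRNAs with miR-99 and miR-100, HOX-cluster non-coding rows with at least 10 reads, and for each member the 3 miRNAs of most similar pattern. The alternatives were DESeq2 1.42.0, limma 3.58.1, other scalings and filters, unrounded counts, summed pairs, a replicate block and each library left out. Reads carry no molecular identifiers, so intervals and the floor of 3 reads cover counting error only, and since no label ties a library to an animal, p-values reflect only spread among libraries, which may be technical.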

Additional observations from a re-analysis of the deposited data

How the results depend on the processing

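miR-10b-5p kept its direction and its call in all alternatives run. Fitted with all other RNAs and TMM factors, miR-10a-5p (log2 fold change 3.08, edgeR adjusted p = 0.200), miR-196a-5p (1.78, adjusted p = 0.479) and miR-615-3p (-1.27, adjusted p = 0.463) lost their calls, and with library totals alone in that fit miR-615-3p reversed to 0.73 while miR-10a-5p (5.08) and miR-196a-5p (4.10) passed. As a share of assigned reads without tRNA rows, miR-615-3p gave a log2 difference of 0.35 (exact permutation p = 0.2). miR-196a-5p also lost its call with the 3 most abundant miRNAs left out of the library size (0.79), with at least 50 reads on average (0.82) and with the replicate number as a block (1.39, edgeR adjusted p = 0.0546). It ranged from 1.15 to 1.72 with 1 library left out, where its adjusted p reached 0.118. The sum of miR-196a-5p and miR-196b-5p passed at 1.29 (edgeR adjusted p = 0.0227), where miR-196b-5p alone did not, and the miR-196a-5p to miR-196b-5p ratio (log2, ESC minus Fb 0.09) ran from -0.28 to 0.70 with 1 library left out, below 0 without Fb replicate 2 or 3. miR-615-3p was not tested with the filter of 50 reads. Of the 161 miRNAs called, 71 higher in ESC and 90 in Fb, the number was 69 in the fit of all RNAs (53 and 16), 86 with at least 50 reads on average, and 103 to 213 with 1 library left out, with 103 without Fb replicate 3 and 107 without ESC replicate 1. The split was 52 and 103 with miRNA totals alone and 45 and 114 with the 3 most abundant left out. The HOX-cluster lncRNA called was 1 with edgeR as reported and with DESeq2, and 0 with library totals alone (0 at an unadjusted p under 0.05), with no filter (1), with the replicate block (1) and without any one library (1 or 2). The cause of these changes was not tested. Same-numbered libraries did not deviate together (correlations of -0.259, -0.110 and -0.133), so the numbers were not taken as pairs. The block gave 114 calls and, among the members, changed only that of miR-196a-5p; it also ended that of the arm miR-196a-1-3p (edgeR adjusted p = 0.141). For miR-615-3p and miR-196b-5p the 2 to 46 reads per Fb library limit what can be seen.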

Other observations

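miR-99a-5p, miR-99b-5p and miR-100-5p are relatives of miR-10 whose genes lie outside the HOX clusters, and their seed, shown in capitals as bases 2 to 8, is a different one.
miR-99a-5p: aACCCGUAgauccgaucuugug
miR-99b-5p: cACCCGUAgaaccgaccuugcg
miR-100-5p: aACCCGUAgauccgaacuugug
They were divided between the groups. miR-99b-5p rose in ESC exosomes, from a mean of 5844 ± 1777 CPM in Fb exosomes to 18815 ± 747 CPM (SD, n = 3). edgeR gave 2.13 ± 0.27 on the log2 scale (SE, adjusted p = 7.18e-04). miR-100-5p rose in Fb exosomes, from 369 ± 15.0 CPM to 2832 ± 709 CPM (edgeR, -2.53 ± 0.32, adjusted p = 7.18e-04), as did miR-99a-5p (edgeR, -1.40 ± 0.37, adjusted p = 0.0184). By RPM neither of these was higher in every Fb library: miR-100-5p was at 49.6, 50.5 and 55.1 RPM in ESC and at 18.1, 42.3 and 59.6 RPM in Fb libraries, which overlap, and miR-99a-5p at 46.4, 38.9 and 53.8 RPM against 4.88, 24.7 and 23.6 RPM, higher in each ESC library. The 3 together held 1.95% ± 0.0777 (ESC) and 0.980% ± 0.202 (Fb) of mature miRNA reads, below the 12.3% ± 1.73 and 1.62% ± 0.748 of the miR-10 pair.

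Among the 179 tested miRNAs with a mean of at least 100 CPM, the pattern most like that of miR-10b-5p over the 6 libraries was that of miR-99b-5p (Pearson r = 0.998 on log2 CPM), followed by miR-669c-5p (0.995) and let-7b-5p (0.993). The nearest to miR-10a-5p were miR-200b-5p (0.996), miR-669c-5p (0.992) and let-7b-5p (0.990), and the nearest to miR-196a-5p were miR-203-3p (0.991), let-7c-5p (0.988) and miR-205-5p (0.980). Those of miR-196b-5p were miR-30a-3p, miR-20a-5p (both 0.990) and miR-17-5p (0.982). miR-615-3p was most like the imprinted miR-434-3p (0.996), miR-140-5p (0.996) and miR-24-3p (0.995). The libraries form 2 groups, so these values describe mainly the step between the groups and the spread of the Fb libraries.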
